A study of Mus musculus with 6 samples.

Results

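The clustered protocadherins are 57 of the 21887 protein-coding genes in the RefSeq table of GRCm38.p6. They were chosen by symbol, as Pcdha followed by a digit or c, Pcdhb followed by a digit, or Pcdhga, Pcdhgb or Pcdhgc. All lie on chromosome 18 in 3 neighbouring arrays, with 14 genes in the alpha array, 22 in the beta array and 21 in the gamma array. The data are peak lists made by CUT&Tag, in which an antibody in intact cells brings a transposase to its target to cut and tag the DNA there. The cells were wild-type B16, a mouse melanoma line, and the labels give them no treatment. One list was for H3K4me3 (histone H3 trimethylated at lysine 4, a mark of active promoters) and the other for p300 (a histone acetyltransferase found at active enhancers and promoters), with 1 library each, so no difference below has a replicate check or a test.

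Clustered protocadherins are cell surface adhesion proteins best known in neurons, where each cell switches on a few of them and so carries its own combination. In the alpha and gamma arrays every variable exon has its own promoter and is spliced to constant exons that the whole array shares. Beta genes consist of a single exon and have no constant part. The promoter in use carries H3K4me3, whereas silent promoters are commonly kept so by DNA methylation and H3K9me3. CTCF and cohesin loop chosen promoters to enhancers that lie beyond the variable exons. The C-type genes at the far end of the alpha and gamma arrays are known to be switched on more uniformly than the rest.

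H3K4me3 was listed at the start of 5 of the 57 genes, and p300 at none. The marked genes were Pcdha8 in the alpha array, Pcdhb5, Pcdhb12 and Pcdhb16 in the beta array, and Pcdhgb2 in the gamma array. Each had a peak of its own, so the 5 genes correspond to 5 distinct peaks. The limit was 1 kb between a peak and the annotated start. Counting either end of the gene gave the same 5 genes for H3K4me3 (8.77%) and 0 for p300, since no peak of either list reached the upper end of a member. Over all protein-coding genes, 50.5% had H3K4me3 and 13.5% had p300 at an end. For 17492 protein-coding genes elsewhere whose starts are annotated with strand, 52.8% had H3K4me3 and 14.4% had p300 within 1 kb of a start. Such a gene can have several annotated starts, any of which counted, whereas each member has a single start.

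The start of a member was taken as its lower coordinate. In the gene table the 14 alpha genes begin at 14 different places and end within 1240 bp of each other, and the 21 gamma genes end within 10 bp of each other, so their lower ends are the variable ones. The beta genes are known to be read in the same direction. The alpha array runs from 36930285 to 37188897 (259 kb), the beta array from 37264998 to 37521419 (256 kb) and the gamma array from 37661775 to 37841873 (180.1 kb). Neighbouring starts lie a median of 7.44 kb apart in the alpha array, 7.84 kb in the beta array and 5.37 kb in the gamma array. A window of 1 kb therefore separates each start from the next, the closest of which are 4154 bp apart.

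**Figure D1:**
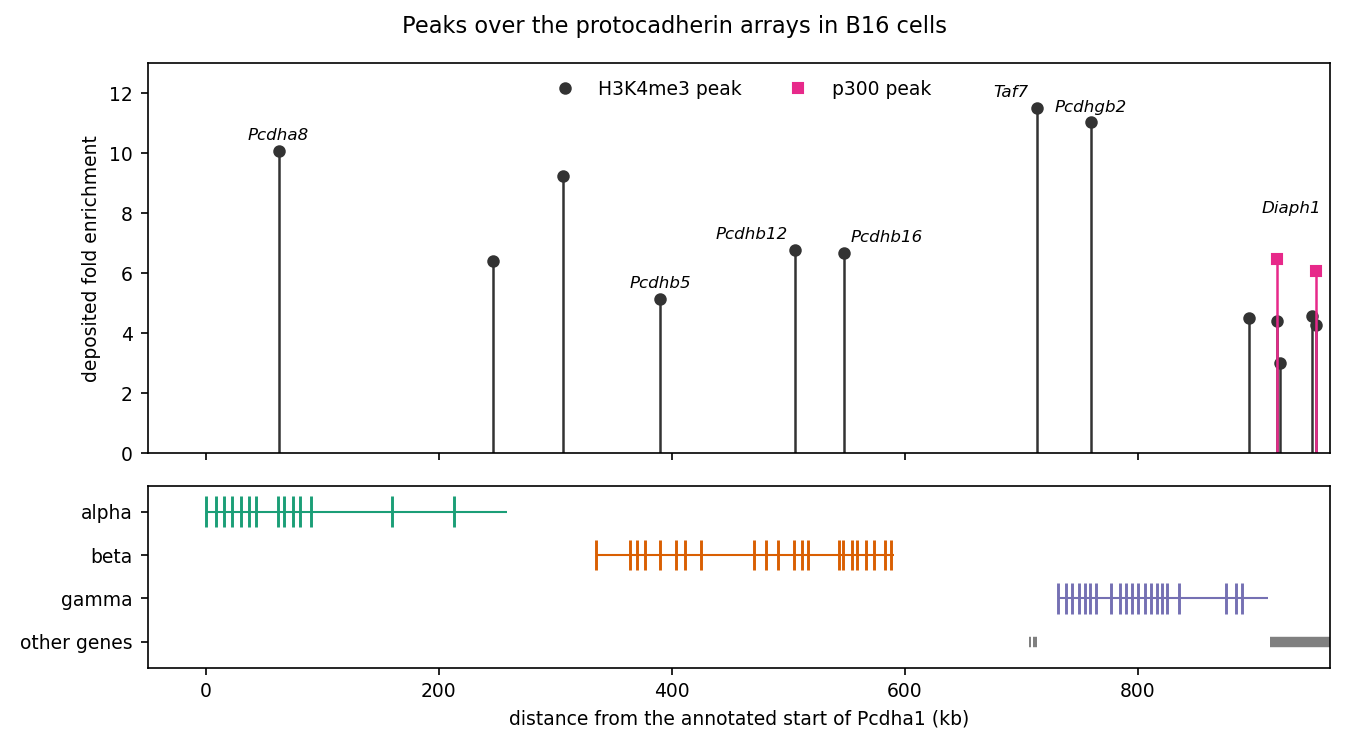
Upper panel, each H3K4me3 peak (black circles) and p300 peak (pink squares) within 50 kb of the arrays, at its summit, with the fold enrichment that the authors deposited; lower panel, ticks for the 57 variable starts, lines for the 3 arrays and grey bars for Slc25a2, Taf7 and Diaph1. The x axis is the distance from the start of Pcdha1 in kb. There are 13 H3K4me3 peaks, of which 5 stand on a variable start, and 2 p300 peaks, both in Diaph1 beyond the gamma array.

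Pcdhgb2, a B-type gamma gene, had the strongest of the marked starts. Its H3K4me3 peak ran from 37689793 to 37690602 on chromosome 18 (GRCm38, the build the labels call mm10), was 810 bp wide and covered the start at 37689859. The deposited fold enrichment was 11.0. The summit held 75 reads and the background was 5.90 reads, and the fold is their ratio after adding 1 to both. Reads at a summit were solved from the deposited −log10 p and fold, as the lists give no totals. The neighbouring starts of Pcdhga4, 4.62 kb below, and Pcdhga5, 4.52 kb above, had no peak within 1 kb.

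Pcdha8 was the single marked gene of the alpha array. Its peak, from 36992290 to 36992962, was 673 bp wide, covered the start at 36992467, and had a fold of 10.1 with 44 reads at the summit. Pcdha9, the next start 5.41 kb above, had no peak nearer than 4.92 kb. Pcdha7, 18.7 kb below, had none nearer than 18.5 kb.

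The 3 marked beta genes had weaker peaks, and each began just past the annotated start without covering it. At Pcdhb5 the peak lay from 37320414 to 37320723, which is 33 bp past the start, with a fold of 5.16 and 18 reads at the summit. Among summits with solved reads, the smallest in the whole H3K4me3 list held 15. At Pcdhb12 the peak lay from 37435767 to 37436548, beginning 146 bp past the start, with a fold of 6.78 and 24 reads. The annotated pseudogene Gm20162 is also within 1 kb of that peak. At Pcdhb16 it lay from 37477812 to 37478171, beginning 44 bp past the start, with a fold of 6.69 and 28 reads. These 3 peaks thus lie within the annotated genes, which have no introns in textbook descriptions. Beta genes resemble each other closely in sequence, and the sources used here do not say how reads that fit several places were treated.

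**Figure D2:**
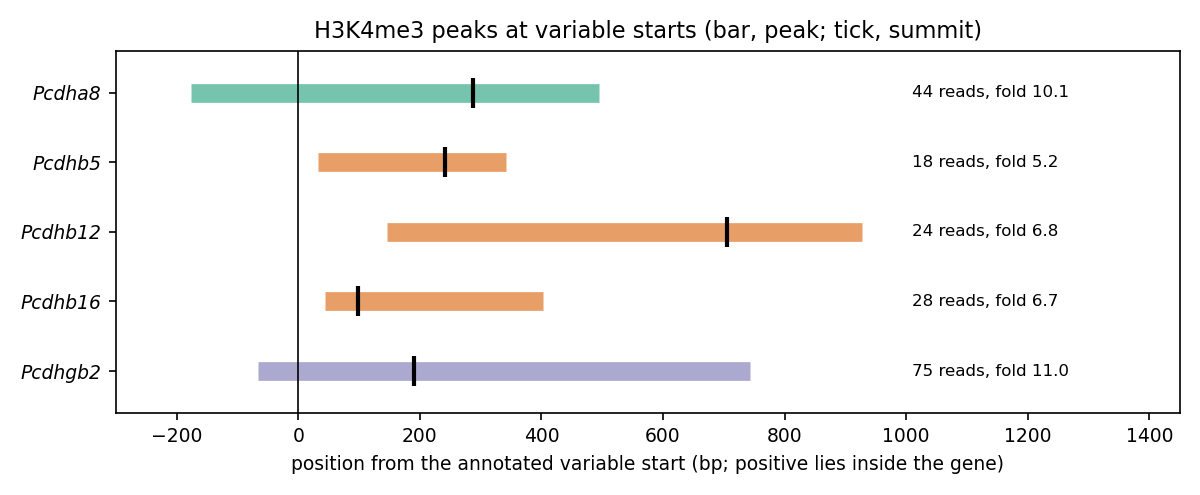
Extent of the H3K4me3 peak (bar) and its summit (black tick) at the 5 marked genes, on an x axis of bp from the annotated variable start, where positive values lie inside the gene. All 5 summits fall between 99 and 706 bp inside the gene, and the bars of Pcdha8 and Pcdhgb2 are the ones that cross the start.

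All 5 summits lay inside the gene. They were 99 bp past the start for Pcdhb16, 190 bp for Pcdhgb2, 241 bp for Pcdhb5, 288 bp for Pcdha8 and 706 bp for Pcdhb12. At 9232 marked protein-coding genes elsewhere, the summit lay a median of 6 bp before the nearest annotated start (quartiles 171 bp before and 200 bp past it), and 48.5% of the summits were past the start. The positions at Pcdha8, Pcdhb5 and Pcdhb12 were beyond that upper quartile, but the comparison is not like for like. A gene elsewhere with several annotated starts was measured from the start nearest its summit, whereas each member has a single start. The positions at the members refer to the annotated start, which may not be the one used in B16 cells.

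Set against H3K4me3 peaks at annotated starts elsewhere, the 5 were low in reads and spread widely in fold. Counted from the lowest, Pcdhgb2 ranked at 18.1% of the 8430 such peaks by summit reads and at 92.8% by fold. Tied peaks took their middle rank. For Pcdha8 the corresponding ranks were 4.93% and 86.5%. For Pcdhb16, Pcdhb12 and Pcdhb5 they were 1.30%, 0.670% and 0.0474% by reads, and 41.8%, 43.5% and 18.9% by fold. The median peak at an annotated start elsewhere had 128 reads, a fold of 7.19 and a width of 1082 bp, and all 5 peaks were narrower and had fewer reads. The background that enters the fold was 2.68 reads at Pcdhb5 and Pcdhb12, the lowest in the list, 3.34 at Pcdhb16 and 3.46 at Pcdha8. A mark in few cells and a weak mark in all cells cannot be told apart in such bulk libraries, nor can the lists show whether 2 marked genes shared a cell or a chromosome copy.

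**Figure D3:**
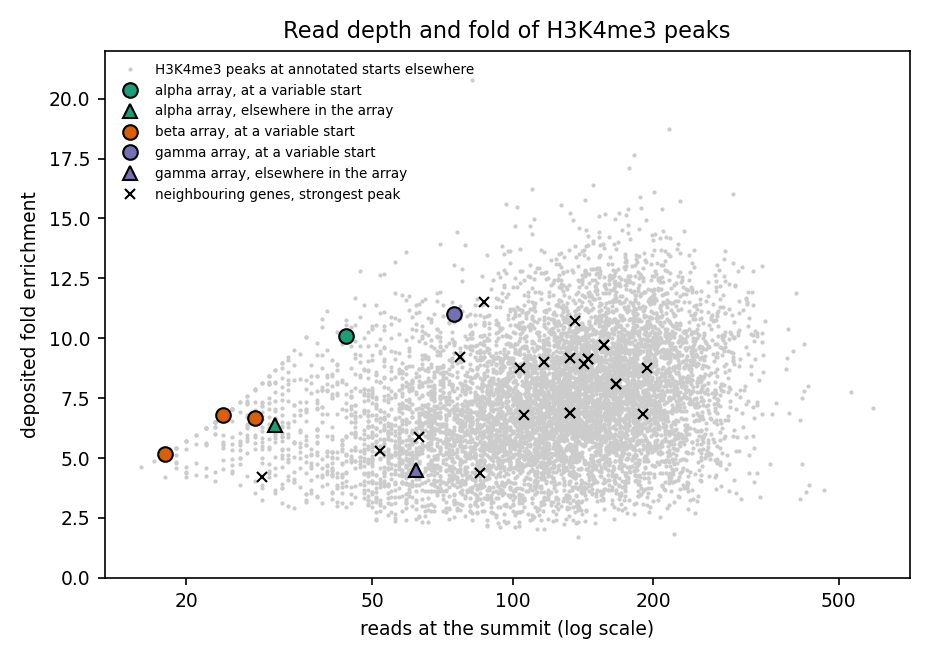
Reads at the summit (x axis, log scale) and deposited fold enrichment (y axis) of H3K4me3 peaks: small grey dots, peaks at annotated starts elsewhere; circles, the 5 peaks at variable starts; triangles, the other 2 peaks inside an array; crosses, the strongest peak at each neighbouring gene. The 5 circles hold 18 to 75 reads, left of the median of 128 at starts elsewhere, while their folds run from 5.16 to 11.0.

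The other 52 members had no H3K4me3 peak at the start, and nothing was close to the limit of 1 kb. The marked start with the most distant peak was Pcdhb12 at 146 bp. The unmarked start with the nearest was Pcdhga5, whose closest peak, that of Pcdhgb2, lay 3.77 kb away. The median distance among the 52 was 24.2 kb, and the largest was 86.8 kb, at Pcdhac1. Over all genes of an array the median was 29.6 kb in alpha, 16.6 kb in beta and 20.9 kb in gamma. For p300 the corresponding medians were 304 kb, 421 kb and 124 kb, and the shortest distance of all was 29.7 kb, at Pcdhgc5. At the upper ends the closest approach was at Pcdhb15, whose end lies between 1 and 2 kb from the peak of Pcdhb16.

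By subtype, 1 of the 12 variable alpha genes, 3 of the 22 beta genes, 0 of the 12 gamma A genes and 1 of the 6 gamma B genes were marked. None of the 5 C-type genes was marked, namely Pcdhac1, Pcdhac2, Pcdhgc3, Pcdhgc4 and Pcdhgc5. The nearest H3K4me3 peak to a C-type start was 5483 bp away, past Pcdhgc5. For comparison, 8.77% of all 57 members were marked at the start, and 52.8% of genes elsewhere at any annotated start. With 5 to 22 genes in a subtype and 1 library, the subtype counts are given as a description and set no subtype apart.

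**Figure D4:**
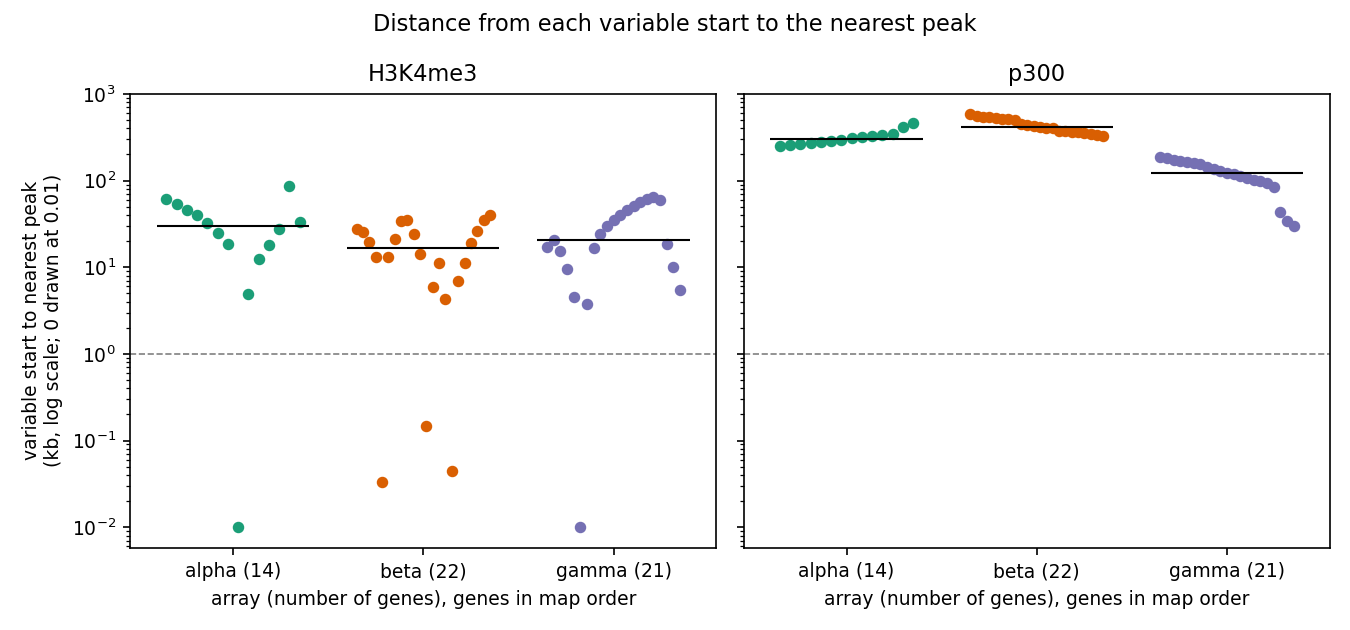
Distance from each of the 57 variable starts to the nearest H3K4me3 peak (left) and p300 peak (right), in kb on a log scale, with genes in map order within each array, black lines at the medians and a dashed line at 1 kb. For H3K4me3, 5 points lie below the line and the rest between 3.77 and 86.8 kb. For p300 every point lies at 29.7 kb or more.

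Only 2 of the 7 H3K4me3 peaks inside the arrays were away from a variable start, and both lay on the stretch that all genes of their array span. In the alpha array a peak of 308 bp from 37176949 to 37177256, with a fold of 6.40 and 31 reads, lay 33.3 kb past the start of Pcdhac2 and within all 14 alpha genes. It ended 11.6 kb before the end of the array. In the gamma array a peak from 37825029 to 37826765 lay 5.48 kb past the start of Pcdhgc5 and within all 21 gamma genes. At 1737 bp it was the widest of the 13 peaks near the arrays, at a rank of 95.05% of the list by width, with a fold of 4.52 and 62 reads. It lies within 1 kb of the annotated noncoding RNA gene Gm29994. The gene table gives no exons, so whether these peaks touch a constant exon was not tested.

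Through these shared stretches, 38 of the 57 genes had an H3K4me3 peak somewhere in the gene, all 14 alpha and 21 gamma genes and the 3 marked beta genes. This count says little of single genes, because 2 peaks account for 35 of the 38. All 57 had H3K4me3 within 50 kb of an end, against 75.2% of all genes, and here too only 13 distinct peaks were involved.

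Between the arrays there were 2 further H3K4me3 peaks. The first, from 37236617 to 37237089, lay between the alpha and beta arrays, 47.7 kb past the alpha end and 27.9 kb before Pcdhb1. It had a fold of 9.23 and 33 reads, and no gene but the 3 readthrough transcripts Gm37013, Gm38666 and Gm38667, which run from alpha starts to the gamma end, has it inside. Enhancers beyond the variable exons of the alpha array have been described, and whether this peak is one of them was not tested. The second, from 37643957 to 37644687, covered an end of Taf7, a subunit of the general transcription factor TFIID. It had a fold of 11.5 and 87 reads, more than any peak inside an array.

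p300 was absent from the listed peaks across all 3 arrays. The nearest p300 peaks lay 251 kb below Pcdha1 and 7.41 kb beyond the gamma end. The stretch between them, 1170 kb long, held 72 protein-coding genes, of which 57 were the members, and 16 H3K4me3 peaks. Of 6491 stretches between successive p300 peaks, 529 were longer, but 6 held more protein-coding genes and 1 held as many. The one with most genes held 235, 222 of them olfactory receptor genes, and olfactory receptor, vomeronasal receptor or keratin genes were the commonest in most of the others. Of the 72 genes around the protocadherins, 13 had H3K4me3 at an end (18.1%). The share was 2.13% in the stretch of 235, 10.4% in the keratin stretch of 77 genes and 17.6% in a stretch of 74 genes on the X chromosome. Among p300 summits with solved reads, the smallest in the list held 14. Weaker sites could go unlisted, and the depth needed for a peak to be listed in the arrays is not known.

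The only p300 near the arrays was in Diaph1, which encodes an actin-nucleating formin and has its lower end 1.73 kb beyond the gamma array. One p300 peak, from 37849279 to 37850253, had a fold of 6.49 and 75 reads at its summit, a rank of 84.6% among p300 peaks. It overlapped an H3K4me3 peak of fold 4.42 and 70 reads over 736 bp, and the 2 summits were 1 bp apart. The second, from 37883608 to 37884190, lay 41.7 kb beyond the gamma end with a fold of 6.07 and 63 reads. It covered an H3K4me3 peak of fold 4.29 and 22 reads over 535 bp. Both lie inside Diaph1 and away from its ends. Because all gamma genes end together, these 2 peaks place every one of the 21 gamma genes within 50 kb of p300, and none of the alpha or beta genes. That makes 36.8% of the 57 members, beside 43.6% of all genes. Gamma enhancers are known to lie beyond the gamma array, and whether these peaks are among them was not tested.

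H3K4me3 peaks were about as dense over the arrays as over chromosome 18 or all chromosomes, and sparser than in the flanks of 500 kb. Genes were much denser over the arrays than on chromosome 18. From the start of Pcdha1 to the gamma end there were 9 peaks, including those between the arrays. That is 9.87 per Mb, beside 8.34 on chromosome 18 and 10.0 over all chromosomes. Members stood at 62.5 per Mb and protein-coding genes at 5.84 per Mb of chromosome 18. The 500 kb on either side of the arrays held 39.0 H3K4me3 peaks per Mb and 7 p300 peaks per Mb. The longest stretches free of H3K4me3 were 190.2 kb up to Pcdha8, with 7 alpha starts, and 184 kb from Pcdha8 to the peak past Pcdhac2, with 6. A stretch of 134 kb beyond Pcdhgb2 held 15 gamma starts. Stretches of this kind are common, as 2287 of 26998 in the list were longer than the first.

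Genes next to the arrays mostly had H3K4me3, while p300 was at an end about as often as over all genes. Of 30 other protein-coding genes within 500 kb, 22 had H3K4me3 at an end (73.3%, beside 50.5% of all genes). For p300 the count was 4 (13.3%, beside 13.5% of all genes). The readthrough genes were left out. Below the alpha array the nearest were Zmat2, a splicing factor, with a fold of 10.7 and 136 reads, and Hars2 and Hars, the mitochondrial and cytosolic histidyl-tRNA synthetases, which share a peak of fold 9.73 and 157 reads. Above the gamma array Diaph1 had a peak of fold 5.31 and 52 reads at an end, and Hdac3, a histone deacetylase, and Rell2 shared one of fold 6.88 and 133 reads. Between the beta and gamma arrays Taf7 was marked, and Slc25a2, a mitochondrial ornithine transporter, was not. The strongest peaks of these neighbours ran from fold 4.21 to 11.5, a range that takes in all 5 of the marked protocadherins, although apart from Pcdh12, with 29, every marked neighbour had 52 reads or more.

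**Figure D5:**
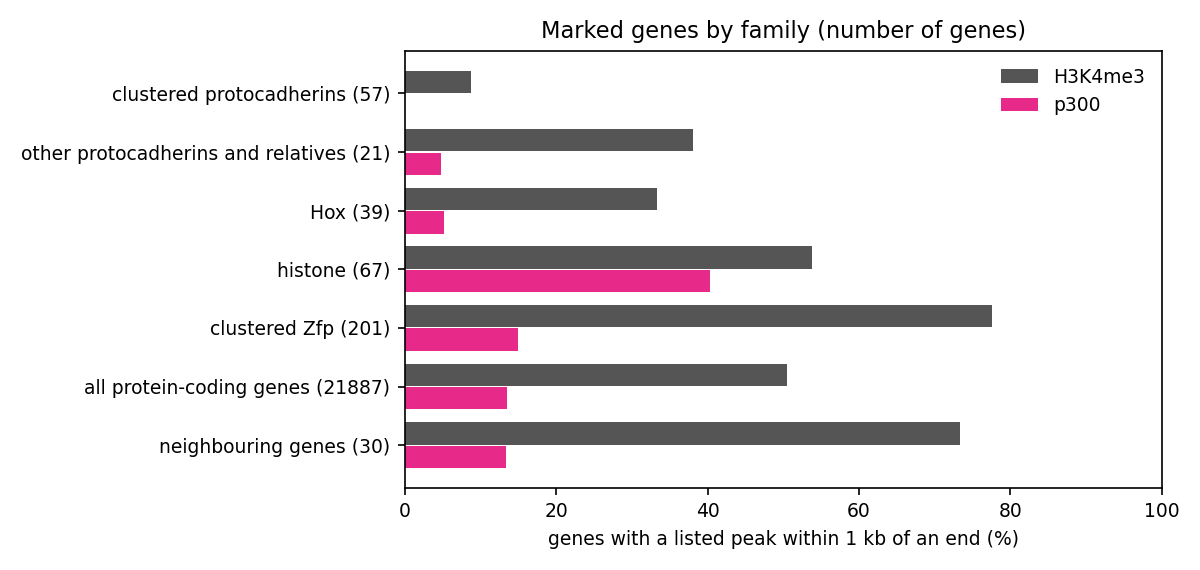
Share of genes with a listed H3K4me3 peak (grey) or p300 peak (pink) within 1 kb of an end, in percent, for the clustered protocadherins, other families, all protein-coding genes and the genes within 500 kb of the arrays, with the number of genes in brackets. The clustered protocadherins have 8.77% and 0%, the lowest of the sets shown for both with the full lists. Among H3K4me3 peaks of at least the median fold the histone genes are lower.

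Other protocadherins and their relatives had H3K4me3 at an end of 8 of 21 genes (38.1%, beside 50.5% of all genes). This list takes in the non-clustered protocadherins, which are single genes scattered over the genome, and the large Fat, Dachsous and Celsr cadherins. Celsr3 had the highest fold at 10.7, followed by Pcdh17 at 7.50, Dchs1 at 6.43 and Pcdh19 at 4.66. Pcdh1 and Pcdh12, which lie on chromosome 18 within 500 kb of the arrays, had folds of 4.39 and 4.21. Of the 21, 14 had H3K4me3 within 50 kb of an end (66.7%, beside 75.2% of all genes). Pcdh8, Pcdh10, Pcdh18 and Pcdh20 were among those that did not. Dchs1 was the 1 gene of the 21 with p300 at an end (4.76%, beside 13.5% of all genes), of fold 5.09.

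Among other clustered families a larger share of genes was marked in each with the full lists, but not in each among stronger peaks. H3K4me3 was at an end of 13 of 39 Hox genes (33.3%), 36 of 67 histone genes (53.7%) and 156 of 201 clustered zinc finger (Zfp) genes (77.6%). The share of all genes was 50.5%. For p300 the counts were 2 (5.13%), 27 (40.3%) and 30 (14.9%), beside 13.5% of all genes. Among H3K4me3 peaks at or above the median fold of the list, 2 of 67 histone genes were marked against 4 of 57 clustered protocadherins, so that order turned, and Hox fell to 5 of 39. Among these stronger peaks 34.4% of all genes were marked. Within the Hox family the count differed by cluster, with 5 of 11 in Hoxa, 5 of 10 in Hoxb, 1 of 9 in Hoxc and 2 of 9 in Hoxd. Clustered genes can share a peak, as in the histone list, where 36 genes were served by 30 distinct peaks. For the clustered protocadherins it was 5 genes and 5 peaks. The median fold of the distinct peaks at ends was 6.78 for the clustered protocadherins, 9.85 for clustered Zfp genes, 5.32 for Hox genes and 4.43 for histone genes. No test was made between families, because neighbouring genes are not independent and each antibody has 1 library.

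Genes known to act on the arrays are given beside all genes, of which 50.5% had H3K4me3 at an end. Sets of 8 genes are too small to place above or below the shares of all genes. Of 8 genes for looping, 4 had it (50.0%), among them Ctcf, which binds at the variable promoters, with a fold of 6.78, and the cohesin subunit genes Smc3 and Smc1a with 7.62 and 7.79. Wapl, which releases cohesin, had 8.78. The other 4, Rad21, Stag1, Stag2 and Nipbl, had H3K4me3 inside the gene. None of the 8 had p300 at an end, while Stag1 and Nipbl had it inside the gene. Of 8 genes for silencing, 5 had H3K4me3 (62.5%) and 2 had p300 (25.0%) at an end, with 13.5% of all genes having p300 there. Smchd1, whose protein is known to keep clustered protocadherins silent, had folds of 6.73 and 4.91. Setdb1, an H3K9 methyltransferase, and Dnmt3b, a DNA methyltransferase, had H3K4me3 of fold 6.83 and 7.81 and no p300 at an end. Trim28, a corepressor, had both, with folds of 5.47 and 5.53, and Dnmt1, Dnmt3a and Lrif1 had H3K4me3 inside the gene. Dnmt1 and Lrif1 also had p300 inside the gene.

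The melanocyte genes were mostly marked, and some neuron genes were too. H3K4me3 was at an end of 6 of 7 melanocyte genes (85.7%, beside 50.5% of all genes). Mitf had the highest fold at 8.16. Tyrp1, Tyr, Pmel, Dct and Sox10 had 5.46, 5.16, 4.82, 4.69 and 2.01, below the list's median of 6.24. Mlana had H3K4me3 inside the gene. For p300 the count was 3 of these 7 (42.9%, beside 13.5%). Of 5 neuron genes, 2 had H3K4me3 and 0 had p300 at an end. A set of 5 genes is too small to place above or below the shares of all genes, 50.5% and 13.5%. Map2 and Syt1 had H3K4me3 folds of 10.7 and 9.46, and Snap25, Stmn2 and Rbfox3 had no H3K4me3 at an end or inside the gene. Over the whole lists there were 27019 H3K4me3 peaks and 6512 p300 peaks on the nuclear chromosomes, with medians of 80.0 and 39.0 reads at the summit, and read totals are unknown.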

How the data were processed

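CUT&Tag was done on 6 B16 libraries, per the labels, which do not say whether any were replicates. The H3K4me3 and p300 libraries of wild-type cells were used, and the 4 H3K9me3 libraries were not analysed here. The labels' protocols give 1 µg of antibody a reaction, 18 PCR cycles and paired reads of 150 bp. The build was mm10, and the submitters' processing notes list deepTools, Picard 2.22.4, Bowtie2 2.2.5 and Trim Galore. The sources used here do not give the peak caller, a control library or filters on repeated sequence. For each antibody the authors deposited 1 list in the narrowPeak layout, with a start, an end and a summit for each peak. Each deposited score is 10 times the deposited −log10 q, cut to a whole number, apart from rounding. The deposited fold was read as a ratio of summit reads to background reads with 1 added to each, which lowers the fold of peaks with few reads most. The −log10 p and −log10 q are the authors' too. All were used only to describe and rank peaks within a list.

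Genes came from RefSeq GRCm38.p6, without strand or exons. The rule matched 58 symbols, of which the pseudogene Pcdhgb8 was left out. A peak counted with an overlap of at least 1 bp with the window, of 1 kb at an end or start and 50 kb for neighbourhoods. Starts of other genes, with strand, came from the RefSeq promoter table, which holds 0 of the members. Summit reads were solved with a Poisson tail as whole numbers that return the deposited −log10 p to 0.01, which worked for 99.9% (H3K4me3) and 99.7% (p300) of the peaks and was tested on simulated data. Clustered Zfp genes had another Zfp gene starting within 100 kb. All members may be named. Of neighbours and lists, the nearest 3 a side, up to 4 of highest fold and small minorities were named, and some further genes were chosen after their values were seen. One gene of the silencing list is not reported here. The members and lists were chosen with earlier results of these data known. Alternatives were other distances, thresholds, summits and merged peaks. Python 3.11.15, pandas 2.3.3 and scipy 1.17.1 were used.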

Additional observations from a re-analysis of the deposited data

How the results depend on the processing

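The 5 marked starts and the 0 with p300 were the same in number at a distance of 500 bp or 2 kb, with summits alone, and with the pseudogene and readthrough genes added, except that ends gave 6 for H3K4me3 at 2 kb. At 5 kb, starts and ends each gave 9, because neighbouring starts are then within reach of the same peak. A −log10 q of at least 10 left 4 marked starts, and a fold at or above the list's median also left 4, without Pcdhb5 in both. A −log10 q of at least 5 removed 0 peaks and so tests nothing. Without it and without counts that were 0, 68 of 87 recomputed values stayed within 1.5 times the first. The gamma window held 4 H3K4me3 peaks instead of 7 at −log10 q of at least 10 and 2 in the stronger part by fold, where the gamma span held 1 instead of 2. A window of 20 kb held 1 p300 peak instead of 2, and 100 kb placed p300 near 26 neighbouring genes instead of 15. Within 50 kb p300 was near 43.6% of all genes, and that share was not computed for 100 kb. In the stronger part by fold, H3K4me3 was at an end of 5 Hox, 2 histone, 3 non-clustered and 3 silencing genes instead of 13, 36, 8 and 5, and p300 at 0, 1, 15, 0 and 0 of the Hox, histone, Zfp, non-clustered and silencing genes instead of 2, 27, 30, 1 and 2. At −log10 q of at least 10, p300 was at 1 Hox, 0 non-clustered and 1 silencing gene. Over all genes this q threshold left 50.0% with H3K4me3 and 10.8% with p300 at an end. The stronger part by fold left 34.4% with H3K4me3 and 6.93% with p300. The cause was not tested. No paired analysis was possible because each antibody has 1 library. Peak lists hold only sites past the caller's threshold. At unmarked starts no peak was listed, which does not show that the mark was absent.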
